A study of Mus musculus with 9 samples.

Results

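Baseline gene expression was described in whole stomachs of 4 wild-type newborn mice, WT 1 to WT 4, which are 4 of the 9 arrays in a study of C/EBPβ knockout mice. Each mouse gave 1 stomach, 1 RNA sample and 1 Agilent 1-colour array, so the spread given below is that between mice and arrays together. The mice carried no stated mutation, strain is not given, and they were killed at birth, although the source field of the labels calls them old. From each stomach 0.3 µg of total RNA was reverse-transcribed with oligo dT priming and labelled with the dye Cy3. The 5 knockout arrays were not used, and with 1 group of 4 arrays there was no comparison to test. All values are descriptions.

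A gene entered the description when a probe for it was well above background on all 4 arrays, a flag that the scanner software sets per spot. Such a gene is called measured, and a gene or probe without the flag on an array is called dim there. This held for 25661 of 55681 probes and 19097 of 34844 gene names (54.8%), of which 14112 have a gene symbol. Where several probes of a gene passed, the one with the highest mean was used. Of the 4848 genes with several measured probes, 46.0% had probes more than 4-fold apart, so a level is that of the brightest probe. Other probes are named below for some genes only, so a gene given without them may still have one that reads far lower. The level is log2 of the processed signal minus the 75th percentile of the same array, so 0 is the signal that 25% of the spots exceed and 1 unit is a 2-fold difference. The median level of the measured genes was 0.53, the 10th percentile −2.58, the 90th 4.39 and the 99th 8.01. Signal depends on a probe's sequence as well as on the amount of RNA, so the order of genes below is one of signal. In whole tissue, fewer cells of a type and less RNA per cell cannot be told apart.

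The mouse stomach is lined by a keratinised squamous epithelium in its upper part, the forestomach, and by a glandular epithelium below. The glandular part holds mucous pit and neck cells, acid-secreting parietal cells, enzyme-secreting chief cells and hormone cells. Both linings lie on connective tissue and a wall of smooth muscle with its own neurons, and the newborn organ is adapted to milk.

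WT 4 stood apart from the other arrays. Across genes, Pearson correlations were 0.985 to 0.992 among WT 1, WT 2 and WT 3 and 0.951 to 0.953 between these and WT 4. The median SD of a measured gene over the 4 arrays was 0.33, and it was 0.193 over WT 1 to WT 3, with the filter taken over those 3. WT 4 lay more than 2-fold below each other array for 1163 of 19097 genes (6.09%) and more than 2-fold above each for 1143 (5.99%). For WT 3 such genes numbered 12 below (0.0628%) and 80 above (0.419%). WT 1 and WT 2 were hybridised on one slide (slide 2), WT 3 and WT 4 on another (slide 1). On WT 4 the 75th percentile of the signal was lowest, at 221 against 298 to 412, and the 100 brightest genes held 24.9% of the summed signal against 19.6% to 20.8%. The share of spots well above background was 50.9% to 57.2%, lower on slide 1, and 0 spots were saturated. The part of the low 75th percentile and the high share of the brightest genes on WT 4 in the levels below was not tested.

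Genes of secretory stomach epithelium led the signal, together with genes of the cornified layer, the cytoskeleton, mitochondria and ribosomes. The brightest gene was Cym, which encodes chymosin, the milk-clotting protease of the suckling stomach. Its level was 10.13 on WT 1, 10.45 on WT 2, 10.25 on WT 3 and 11.05 on WT 4, or 10.47 ± 0.41 (SD, n = 4), and another probe for it read 9.56. Before scaling, Cym signal on WT 4 (469796) lay between that of WT 1 (461478) and WT 2 (477965), so its highest level on WT 4 came with that array's lower 75th percentile. Tff1, a trefoil peptide gene of surface mucous cells, stood at 9.84 ± 0.39, with another probe at 9.57. Pga5, which encodes a pepsinogen, had levels of 9.44, 10.03, 9.78 and 9.98 on WT 1 to WT 4 (9.81 ± 0.27). U46068, now named Bpifb1 and coding for a secreted protein of mucosal surfaces, was read at 9.57 ± 0.34 and by another probe at 9.51. For each of Cym, Tff1 and Bpifb1 the probes thus lay less than 1 unit apart.

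**Figure D1:**
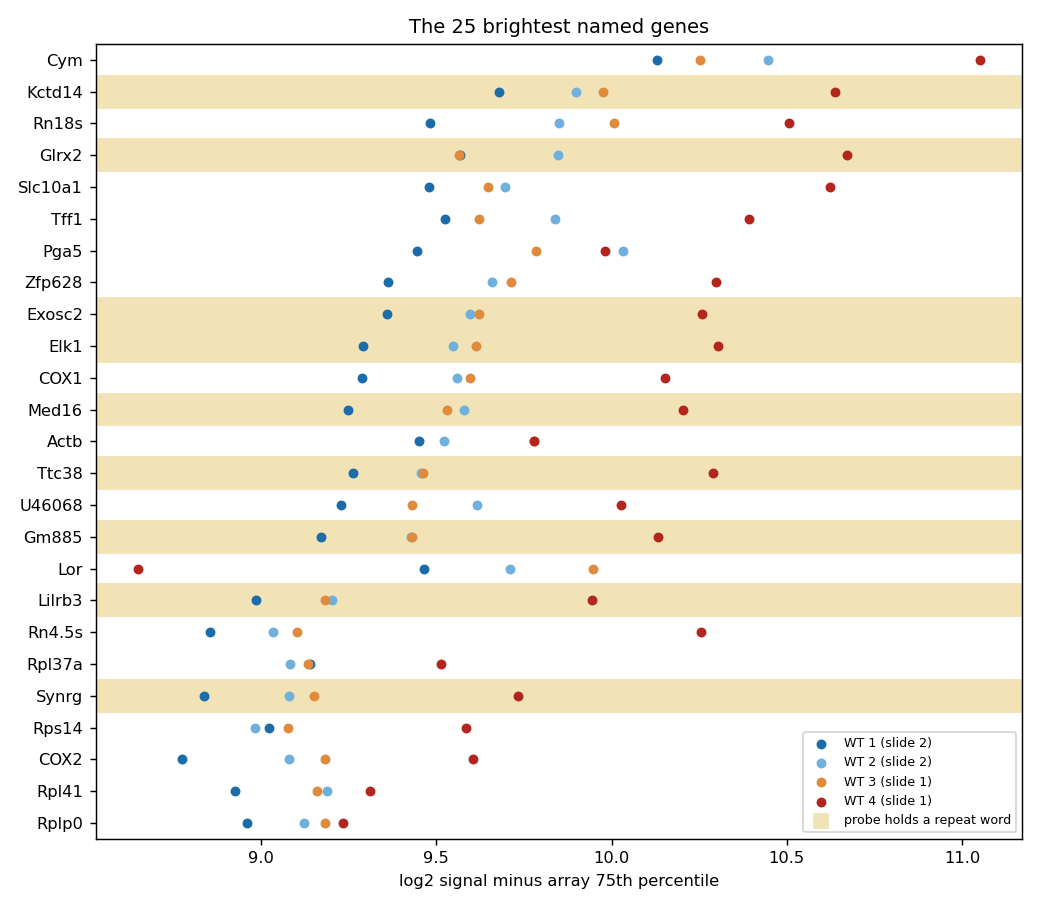
Levels of the 25 measured genes with a symbol and the highest mean (x axis, log2 signal minus the array's 75th percentile), 1 point per array. Shaded genes are read by a probe with a repeat word, explained in the text. On this scale 23 of the 25 were highest on WT 4, the array with the lowest 75th percentile, and Lor was lowest on WT 4.

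The other leading genes had roles in many cells. Actb, the cytoplasmic beta actin gene, stood at 9.63 ± 0.17 and the mitochondrial cytochrome oxidase genes COX1 and COX2 at 9.65 ± 0.36 and 9.16 ± 0.34. For COX2 the array design places the probe on chromosome 1, whereas RefSeq has the gene on the mitochondrial genome. The design likewise puts the Tff1 probe on chromosome 5, and RefSeq the gene on chromosome 17. Rn18s, the 18S ribosomal RNA, was read at 9.48, 9.85, 10.01 and 10.51 on WT 1 to WT 4, although reverse transcription was primed with oligo dT. Of 80 measured ribosomal protein genes, 4 were among these 25 and 18 among the 100 brightest genes, and their median was 7.79. Their median SD, 0.129, was below that of all measured genes (0.33).

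A further 9 of the 25 genes were read by a probe that the rule below marked as sharing letters with interspersed repeats. These repeats are short sequences present in many copies across the genome and also inside transcripts. A word of 16 bases was called a repeat word when it lay, on either strand, in at least 20 of 32851 RefSeq promoter windows (GRCm38.p6) and held at least 9 distinct 3-letter words. The rule used no signal. Of all probes, 142 (0.255%) hold such a word, and 122 of these (85.9%) were well above background on all arrays, against 46.0% of the other probes. The 106 genes read by such a probe (0.555% of the measured genes) had a median level of 3.45, against 0.52 for the other genes, and made up 19 of the 100 brightest. The stretches below are 30 bases of the probes, 5′ to 3′ as printed on the array, with the word in capitals and design coordinates on mm9. They are shown because each set shares 1 word although the genes are unrelated.

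The first set shares GTTCCAGGACAGCCAG, found in 35 promoter windows (0.107%) and 8 probes. Its letters are those of B1, a short repeat of rodent genomes.
Kctd14, chr7:104606919-104606948, plus strand: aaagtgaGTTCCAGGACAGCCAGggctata
Glrx2, chr1:145596715-145596744, plus strand: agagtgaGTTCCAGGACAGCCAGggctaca
Elk1, chrX:20510538-20510567, minus strand: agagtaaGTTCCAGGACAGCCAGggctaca
Med16, chr10:79357699-79357728, minus strand: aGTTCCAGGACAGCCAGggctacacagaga

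The second set shares TCTGAAGACAGCTACA, in 50 windows (0.152%) and 13 probes, and the pair after it CACATGGTGGCTCACA, in 69 windows (0.210%) and 2 probes. Both words belong to B2, another short rodent repeat.
Lilrb3, chr7:3663053-3663082, minus strand: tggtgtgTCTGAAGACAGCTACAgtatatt
Synrg, chr11:83855525-83855554, plus strand: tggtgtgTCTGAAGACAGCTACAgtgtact
Exosc2, chr2:31536720-31536749, plus strand: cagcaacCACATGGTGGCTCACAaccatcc
Gm885, chr11:106628776-106628805, plus strand: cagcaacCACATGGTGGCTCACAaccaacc

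For contrast, the probes of chymosin and of loricrin, described below, hold none of these words.
Cym, chr3:107014316-107014345, minus strand: ttcgggagttctacagtgtgtttgacagag
Lor, chr3:91884221-91884250, minus strand: aatgactacctcccaattctagtgtctcct

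Other probes of the same genes read far lower. Kctd14, a gene of the potassium channel tetramerisation domain family, was at 10.05 ± 0.41 on its brightest probe and at 1.94 and −2.72 on the others. Glrx2, a mitochondrial glutaredoxin gene, was at 9.91 ± 0.52 against 1.82 and a probe not well above background. Elk1, which encodes an ETS transcription factor, was at 9.69 ± 0.43, and its other probe was well above background on 2 arrays. Med16, a Mediator subunit gene, read 9.64 against 2.74, Ttc38 9.62 against 1.39, −0.60 and −0.90, and Synrg 9.20 against 2.04 and 1.30. Lilrb3 (now Pirb), an inhibitory receptor gene of leukocytes, read 9.33 against −1.93 on the other measured probe. For Gm885 (now Milr1), the next probe, at 7.32, holds a repeat word as well, and the probe without one read 0.71. Exosc2, a subunit gene of the RNA exosome, has 1 probe (9.71 ± 0.39). Among genes with several measured probes, the brightest and dimmest probe differed by a median of 6.10 where the brightest holds a repeat word (35 genes) and by 1.79 where it does not (4813 genes). The levels of these 9 genes are therefore reported as levels of the probe. Without repeat-word probes, an alternative chosen after the data were seen, 81 of the 100 brightest genes were shared with the main list.

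**Figure D2:**
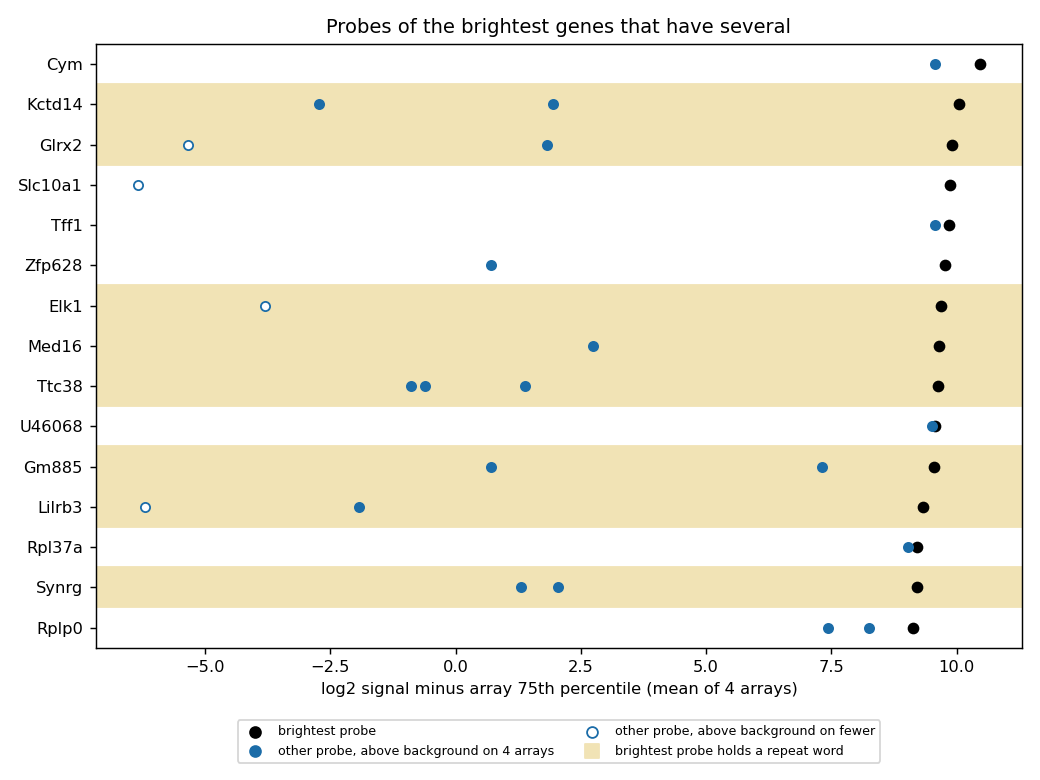
Mean level over the 4 arrays (x axis, log2 signal minus the 75th percentile) of each probe of the 15 brightest genes with several probes. Filled blue points are probes well above background on 4 arrays, open points on fewer, and shaded genes have a repeat word in the brightest probe; the other probes of Cym, Tff1 and U46068 lie close to the brightest, those of the shaded genes mostly far below.

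Slc10a1 and Zfp628, also among the 25, hold no repeat word by this rule, but their probes differed as widely. Slc10a1, the bile acid uptake gene of liver cells, was at 9.86 ± 0.52, while its other probe was dim on all 4 arrays. Zfp628, a zinc finger gene, read 9.76 on a probe of mostly C and G bases and 0.71 on another. Rn4.5s, a small noncoding RNA, stood at 9.31 ± 0.64 on 1 probe. After these values were seen, the Slc10a1 probe was found to share a run of 18 bases with that of the granulocyte gene Csf3r. Its last 16 bases, CTTTAATCCCAGCACT, lie in 7 promoter windows and 8 probes, and the 5 of these that were measured had a median of 6.97. That word is also of B1, but its 7 windows are below the 20 that the rule required, so the rule misses such probes. The probe of the leukocyte integrin gene Itgam begins with a 2-base repeat. At least 16 bases of such a repeat occur in 132 probes, of which 130 (98.5%) were measured, with a median of 4.10. They are printed because they bear on the blood genes below.
Slc10a1, chr12:82056566-82056595, minus strand: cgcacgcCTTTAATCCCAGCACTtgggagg
Csf3r, chr4:125721508-125721537, plus strand: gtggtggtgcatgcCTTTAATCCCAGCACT
Itgam, chr7:135261755-135261784, plus strand: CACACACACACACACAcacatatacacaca

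By tissue group, squamous genes had the highest median and blood genes the lowest. The median over the measured members, averaged over arrays, was 4.31 ± 0.83 for squamous (54 of 59 genes measured), 2.40 ± 0.23 for glandular (87 of 103), 2.08 ± 0.26 for stromal (73 of 79), 1.91 ± 0.41 for muscle (53 of 66) and 0.88 ± 0.35 for blood genes (56 of 99), beside 0.53 for all measured genes. Means of single genes ran from −3.24 (Pcsk1) to 10.47 (Cym) in the glandular group, from −0.41 (Ivl) to 9.44 (Lor) in the squamous, from −3.53 (Nos1) to 9.03 (Myl9) in the muscle, from −3.14 (Nkx3-2) to 8.57 (Sparc) in the stromal and from −3.12 (Cd79a) to 6.97 (Csf3r) in the blood group. From the lowest to the highest measured gene this was 927-fold in the squamous and 13403-fold in the glandular group, and the groups overlapped widely. At the ends of the blood range, the array design places the Cd79a probe on chromosome 12, and RefSeq the gene on chromosome 7. The Csf3r probe is the one printed above. Squamous medians were 4.80, 4.65 and 4.73 on WT 1 to WT 3 and 3.07 on WT 4, still above the other 4 groups on that array. Without WT 4, with the filter taken over the other 3 arrays, the medians were 4.39 for squamous, 2.14 for stromal, 2.04 for glandular, 1.44 for muscle and 0.754 for blood genes, so glandular and stromal genes changed places. The order of glandular, stromal and muscle genes lay within the spread between arrays. The muscle group joins 22 measured smooth muscle genes (median 5.03), 10 of skeletal muscle (1.40) and 21 of Cajal cells, enteric neurons and glia (0.49). Its lowest gene, Nos1, is of the last list, so the group median is not that of smooth muscle.

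**Figure D3:**
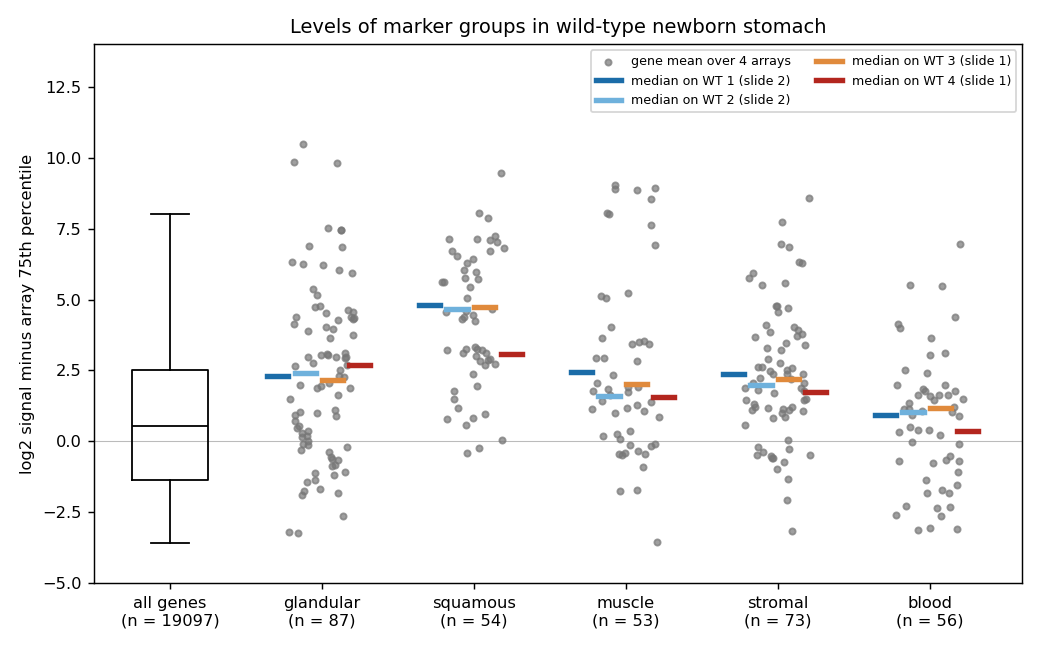
Grey points are means over the 4 arrays of the measured genes of each tissue group, coloured bars the group's median on each array, and the box all measured genes (median and quartiles, whiskers at the 1st and 99th percentile); the y axis is log2 signal minus the 75th percentile. The squamous median lay highest, and its bar for WT 4 (3.07) lay below those of WT 1 to WT 3.

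Of the glandular lists, pit cell genes were all measured (15 of 15; median 3.06 ± 0.68). Below Tff1 came Gkn2, a gastrokine gene, at 6.84 ± 0.38 and Dpcr1 at 6.22 ± 0.88. Muc5ac, the main surface mucin, was at 0.72 ± 0.61, near the median of all genes. Gkn1, a gastrokine abundant in the adult stomach, was the lowest at −1.92, −2.26, −2.29 and −0.53 on WT 1 to WT 4. WT 4 was the high array there, and 6 of the 15 genes were more than 2-fold higher on it than on each other array. Over the glandular group this held for 13 of 87 genes, beside 5.99% of all measured genes. More than 2-fold lower on WT 4 were 3 of the 87 (3.45%), beside 6.09% of all.

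Mucous neck cell genes were measured throughout (9 of 9; 2.96 ± 1.25). Their low median on WT 4 (1.09 against 3.42 to 3.69) was the value of Gpx3, and 2 of the 9 genes were more than 2-fold lower on that array. Agr2, which encodes a disulfide isomerase of mucin-producing cells, led at 6.90 ± 0.47, followed by the trefoil gene Tff2 (5.95 ± 0.28) and the pepsinogen C gene Pgc (4.33 ± 0.30), while the gland mucin gene Muc6 lay at −1.44 ± 0.68 and Aqp5 at −0.87 ± 0.46. Of 16 parietal cell genes 14 were measured (2.59 ± 0.23). The acid pump's beta subunit gene Atp4b read 7.27, 7.60, 7.25 and 7.90 on WT 1 to WT 4 (7.51 ± 0.31), and its alpha subunit gene Atp4a 4.65, 5.24, 4.76 and 3.90 (4.63 ± 0.56). On this scale WT 4 was thus highest for the beta and lowest for the alpha subunit gene. Before scaling, Atp4b signal on WT 4 (52768) lay between that of WT 3 (45442) and WT 1 (63729). Atp4a signal was lowest on WT 4 there too (3292 against 8060 to 12940). Gif, the intrinsic factor gene, stood at 4.77 ± 0.50 and the gastrin receptor gene Cckbr lowest at −1.80 ± 0.59. Hrh2, the histamine receptor gene, was dim on all 4 arrays.

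Chief cell genes were the most uneven list. Cym and Pga5 were among the brightest genes of the tissue, whereas 5 of 11 members did not pass, among them Lipf, the gastric lipase gene, which was dim on all 4 arrays. Bhlha15, the factor MIST1 of mature chief cells, was at 2.27 ± 0.75. Hormone cell genes had a low median (17 of 21 measured; −0.23 ± 0.22). Ghrl, the ghrelin gene, led with 6.32, 6.25, 6.20 and 5.45, lowest on WT 4. Sst, which encodes somatostatin, stood at 1.90 ± 0.97, and Gast, the gastrin gene, at −2.63 ± 0.31. The granule genes Chga and Chgb were at 2.70 ± 0.27 and 0.93 ± 0.14.

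Of 15 regional transcription factor genes 10 were measured (2.17 ± 0.59). Klf4 (4.55 ± 0.31), Foxa1 (4.03 ± 0.38) and Klf5 (3.65 ± 0.37) led. Sox2, a factor of the foregut, was at 1.03 ± 0.31 and Gata4, a factor of the glandular part, at 1.64 ± 0.51. The intestinal factors Cdx1 and Cdx2 were dim on all 4 arrays, and the duodenal and antral factor Pdx1 was well above background on 1 array. General epithelial genes were all measured (17 of 17; 3.23 ± 0.35), led by the simple epithelial keratins Krt8 (7.46 ± 0.41) and Krt18 (7.44 ± 0.46), with E-cadherin, Cdh1, at 3.76 ± 0.34 and the tight junction gene Cldn3 lowest at −0.31 ± 0.87.

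The squamous lists covered basal cells and the layers that cornify. Basal cell genes were measured in 15 of 16 cases (2.89 ± 0.15). Perp, a desmosomal gene, and Krt5, the basal keratin, stood at 7.14 ± 0.60 and 7.12 ± 0.90. Krt14, the partner keratin of Krt5, was at 2.87 ± 0.81. For Krt5 and for Trp63, the master factor of squamous epithelium, probes disagreed, with 7.12 and 0.68 for Krt5 and between 3.11 and −2.91 for the 4 Trp63 probes. Krt5 was lowest on WT 4 (5.79 against 7.37 to 7.66), and the brightest Trp63 probe was highest there (4.16 against 2.46 to 3.11).

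Genes of squamous differentiation and the cornified envelope had a list median of 4.60 ± 0.97 (39 of 43 measured), and 22 of them were among the brightest 10% of genes. Lor, the gene of loricrin, the main envelope protein, read 9.47, 9.71, 9.95 and 8.65 on WT 1 to WT 4 (9.44 ± 0.56). Cnfn (8.04 ± 0.37), Crct1 (7.88 ± 0.42) and Flg, the filaggrin gene (6.04 ± 0.42), belong to the same late layers. Another Crct1 probe read −2.84. Ivl, the involucrin gene, was the lowest member at 0.42, 0.29, 0.70 and −3.06, and Sprr2a1 was dim on all 4 arrays. Sprr2a2 of the same small proline-rich family, not a list member, read 8.97 ± 0.37, with other probes at 8.22 and −0.56. Its level was highest on WT 4, though its signal before scaling was not. Members of this family resemble each other in sequence, so the assignment of signal among them is uncertain.

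The list median was 5.08, 5.11 and 5.06 on WT 1 to WT 3 and 3.15 on WT 4, and 23 of the 39 genes lay more than 2-fold below each other array on it (28 of 54 over the whole squamous group, or 51.9%, beside 6.09% of all genes). Krt1, a keratin of cornifying epithelia, was at 6.70, 6.33, 7.16 and 2.30, and its partner Krt10 at 7.06, 6.58, 7.08 and 3.18. The keratin genes of internal squamous epithelia were lowest on WT 4 too, with Krt4 at 5.28, 5.70, 5.72 and 1.96 and Krt13 at 6.87, 7.08, 7.08 and 4.05. Krtdap (8.11, 7.89, 8.29 and 4.63) and Sprr3 (6.50, 6.70, 6.73 and 2.95) were low on WT 4 as well. Krt16, a keratin of stressed epithelium, was not (0.55, 0.53, 0.44 and 0.76). The members thus differed among themselves in how far WT 4 lay from the other arrays.

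**Figure D4:**
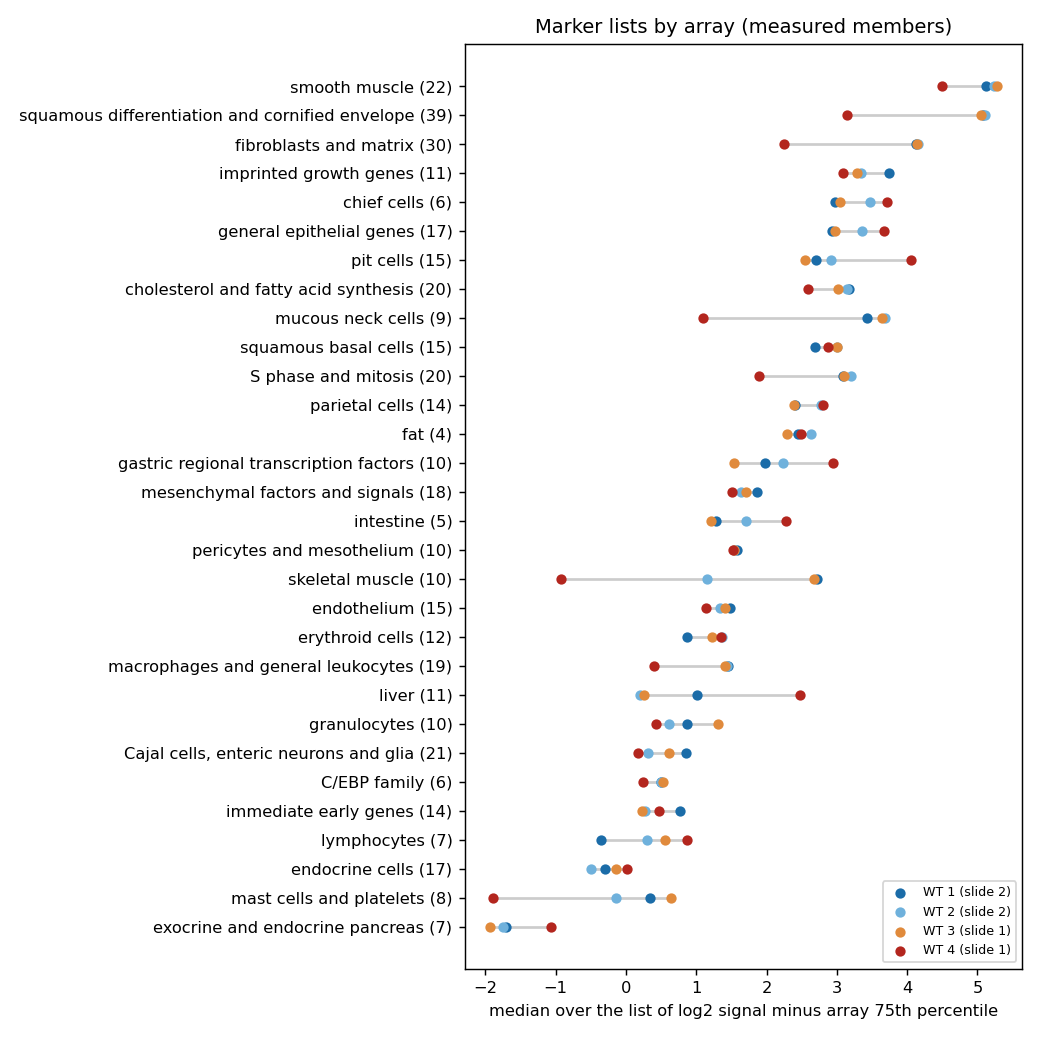
Median level of the measured members (number in parentheses) of each of the 30 marker lists, 1 point per array, on an x axis of log2 signal minus the 75th percentile. WT 4 was the lowest array for 16 lists and the highest for 10; the medians of squamous differentiation and of fibroblast genes lay lower on it, those of pit cell and liver genes higher, and the low mucous neck median is the value of 1 gene, Gpx3.

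In the muscle group, smooth muscle genes had the highest list median of all 30 lists (5.03 ± 0.36), and all 22 were measured. The regulatory light chain gene Myl9 read 9.06, 9.07, 9.20 and 8.81, Tagln, the transgelin gene, 8.93 ± 0.27, and the smooth muscle actins Actg2 and Acta2 8.89 ± 0.39 and 8.85 ± 0.47. Csrp1, a LIM domain protein gene, differed little between arrays (8.54 ± 0.07). Des, the intermediate filament gene of muscle, read 4.22, 4.14, 4.27 and 1.98, and Lmod1 was lowest at −1.74 ± 0.22. Of 20 skeletal muscle genes 10 were measured, with list medians of 2.72, 1.15, 2.67 and −0.93 on WT 1 to WT 4. Of the rest, 1 was dim on all 4 arrays and 9 were well above background on some. Medians and counts by array leave these genes out. Acta1, the skeletal actin gene, read 3.94, 3.69, 4.59 and 1.95, Myh3, the embryonic myosin heavy chain gene, 3.47, 1.39, 3.28 and −1.20, and the myogenic factor Myog 1.17, −0.59, 0.68 and −3.07. All 3 genes were lowest on WT 4 and next lowest on WT 2. In the muscle group 13 of 53 genes (24.5%) were more than 2-fold lower on WT 4, beside 6.09% of all measured genes. These were 7 of 10 skeletal muscle genes, 3 of 22 smooth muscle genes and 3 of 21 genes of Cajal cells, enteric neurons and glia.

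Genes of interstitial cells of Cajal, enteric neurons and glia had a low median (21 of 24 measured; 0.49 ± 0.31). Ano1, the chloride channel gene of the pacemaker cells, was at 3.49 ± 0.43 and Kit, their receptor tyrosine kinase gene, at 1.64 ± 0.21, while the neuronal genes Stmn2 and Tubb3 were at 1.91 ± 0.21 and 1.19 ± 0.23. Nos1, the gene of the inhibitory transmitter's enzyme, was the lowest at −3.53 ± 0.30 on the probe that passed, and Gfap was well above background on 2 arrays.

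All 30 fibroblast and matrix genes were measured (3.67 ± 0.94). Sparc, an abundant matrix glycoprotein gene, stood at 8.99, 8.90, 8.84 and 7.55, while another measured probe for it read 3.92. Col1a2 was at 7.74 ± 0.52, Col1a1 at 6.97 ± 0.56 and Col3a1 at 6.83 ± 0.51. Eln, the elastin gene, read 3.74, 3.17, 2.95 and 0.51, and Dpt, the dermatopontin gene, was lowest at −0.52 ± 1.12. List medians were 4.12, 4.15 and 4.14 on WT 1 to WT 3 and 2.26 on WT 4. More than 2-fold lower on WT 4 were 18 of the 30 genes and 23 of 73 stromal genes in all (31.5%), beside 6.09% of all measured genes. The mesenchymal factors did not share this, with 1 of 18 measured (1.68 ± 0.15). Barx1, the homeobox gene of stomach mesenchyme, was at 1.87 ± 0.49, and Foxf1 at 3.92 ± 0.22 with another probe at −1.73. The signal gene Bmp4 was at 3.23 ± 0.28 and Nkx3-2 at −3.14 ± 0.39. Of 17 endothelial genes 15 were measured (1.35 ± 0.15). They ran from Egfl7 (4.54 ± 0.21) and the VEGF receptor gene Kdr (4.04 ± 0.81, another probe 1.51) to Pecam1 (−0.59 ± 0.49) and Tek (−2.06 ± 0.48). Prox1, the lymphatic factor, was dim on all 4 arrays. Pericyte and mesothelial genes were at 1.55 ± 0.03, and Msln, the mesothelin gene, at 2.63 ± 0.26.

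Blood cell genes were measured in 56 of 99 cases, the smallest share of the 5 tissue groups, beside 54.8% of all gene names, and 30 were dim on all 4 arrays. In the erythroid list 12 of 24 were measured (1.20 ± 0.23). The adult globin genes Hba-a1 and Hbb-b1 read 5.51 ± 0.17 and 4.40 ± 0.21 with little difference between arrays, whereas the embryonic globin genes Hbb-y, Hbb-bh1 and Hba-x were dim on all 4 arrays. Hba-a2, named after its value was seen, was at 7.93 ± 0.52 on a probe elsewhere in the transcript, so signal of the near-identical alpha globin genes cannot be divided between them. Ahsp, the alpha globin chaperone gene, was the lowest measured member at −3.07 ± 0.32.

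The brightest leukocyte genes were read by the probes printed above. Csf3r, the granulocyte colony-stimulating factor receptor gene, has 1 probe, at 6.97 ± 0.60, whereas 7 of 19 granulocyte genes, among them Cxcr2 and Ngp, were dim on all 4 arrays. S100a9 stood at 4.42, 4.45, 4.48 and 3.17, Stfa1, a stefin gene, at 3.64 ± 1.44, and S100a8, whose product pairs with that of S100a9, at −1.54 ± 0.37. The granule gene Mpo was lowest at −2.63 ± 0.70. Itgam read 5.47 ± 0.76 on its repeat probe and −2.42 on another measured probe. Macrophage and general leukocyte genes were otherwise modest (19 of 22 measured; 1.18 ± 0.52), with the growth factor receptor gene Csf1r at 3.99 ± 0.22 (other probes −0.10 and −1.10), Cx3cr1 at 1.99 ± 0.46 and the pan-leukocyte gene Ptprc at −3.06 ± 0.46. The list median was 1.42 to 1.46 on WT 1 to WT 3 and 0.40 on WT 4. Of 17 lymphocyte genes 7 were measured (0.34 ± 0.51). Cd4 led at 1.84 ± 0.51 on one of its probes, the T cell gene Cd3e was at 0.34 ± 0.51, and Rag1 and Rag2 were dim on all 4 arrays. Mast cell and platelet genes (8 of 17 measured) were at 0.34, −0.14, 0.65 and −1.90, with the platelet chemokine gene Pf4 at 3.10 ± 0.98 and the mast cell protease gene Mcpt4 at 1.83, 1.08, 2.16 and −1.50. In the blood group 13 of 56 genes (23.2%) were more than 2-fold lower on WT 4, beside 6.09% of all measured genes.

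Genes of organs next to the stomach were also read. Of 15 liver genes 11 were measured, with list medians of 1.01, 0.20 and 0.26 on WT 1 to WT 3 and 2.48 on WT 4. Alb, the albumin gene, was at −1.26, −3.04, −2.30 and 1.57 and Ahsg, the fetuin gene, at 1.01, −0.94, −0.05 and 3.62, while the fetal serum protein gene Afp read 2.52 ± 0.30. Pancreas genes were measured in 7 of 15 cases at a median of −1.61 ± 0.37, with Gcg highest (0.27 ± 0.90) and Amy2a5, an amylase gene also on the chief cell list, at −0.89, −1.46, −2.37 and 2.22. Intestinal genes were measured in 5 of 14 cases (1.62 ± 0.49), led by Anpep (4.26 ± 0.37), and Sis and Muc2 were dim on all 4 arrays. Of 10 fat genes 4 were measured, led by Fabp4 (4.86, 4.29, 4.46 and 2.70), which endothelium also expresses, and Adipoq and Plin1 were dim on all 4 arrays.

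Of 12 imprinted growth genes 11 were measured (3.36 ± 0.28), from H19 to Peg3 (−0.02 ± 0.13). H19, the imprinted noncoding RNA of fetal tissues, stood at 8.62, 8.85, 9.04 and 8.18 (8.67 ± 0.37), and Igf2, its imprinted neighbour, at 1.83 ± 1.15 on 1 probe. Dlk1, another imprinted gene, was at 5.88, 5.61, 5.98 and 3.30. Of 22 genes of S phase and mitosis 20 were measured, with medians of 3.09, 3.20 and 3.11 on WT 1 to WT 3 and 1.89 on WT 4, and Mki67, the proliferation marker Ki-67, read 4.50, 4.37, 4.47 and 3.18. Tyms, the thymidylate synthase gene, was lowest at −2.25 ± 0.23. Immediate early genes had a median of 0.44 ± 0.25 (14 of 18 measured), with Jund at 5.37 ± 0.17 and Fos at −1.37 ± 0.11. All 20 genes of cholesterol and fatty acid synthesis were measured (2.98 ± 0.27), from Hmgcs1 (5.43 ± 0.18), an early enzyme gene of cholesterol synthesis, to Scd1 (−1.15 ± 0.81).

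Of the C/EBP family, which contains the gene that the study removed in its other mice, 6 of 7 members were measured. Cebpb led with 3.71, 3.21, 3.28 and 3.00 (3.30 ± 0.30), a level above 82.8% of the measured genes. Cebpd, an acute-phase relative, followed at 2.10 ± 0.46, then Cebpa at 0.82, 0.94, 0.90 and −0.82, Cebpz at 0.34 ± 0.41, Cebpg at −0.63 ± 0.18 and the stress-induced Ddit3 at −0.64 ± 0.44. Cebpb and Cebpd did not overlap over the arrays, while Cebpa and Cebpz, and Cebpg and Ddit3, did. Cebpe, which acts in granulocyte maturation, was dim on each of the 4 arrays.

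The spread over the 4 arrays holds mice and arrays together. Its SD exceeded 1 for 615 of 19097 genes (3.22%), while WT 4 alone lay more than 2-fold below each other array for 6.09% and above for 5.99%. For probes with repeated spots the median SD was 0.060 to 0.106 between spots of an array and 0.268 between arrays (278 probes). Of the 12 genes with a symbol and the largest SD, 6 were lowest on WT 4, namely Krt1, Krt6b, Lgals7, the galectin-7 gene of stratified epithelia, Klk6, Myh3 and Mybph. A further 5 were highest there, namely Alb, Ahsg, Amy2a5, Syn3 and Tbx22. Tbx22, a T-box factor gene, read −0.30, −0.46, −0.40 and 3.66 on a probe with a 2-base repeat, and its other probe was dim on all 4 arrays. Zfp606, a zinc finger gene, was highest on WT 3 (2.04 against −2.29 to −2.04). Both arrays of slide 1 lay below both of slide 2 for 16.4% of all genes and above for 20.3%. Among squamous genes this held for 8 and 2 of 54, and among stromal genes for 16 and 3 of 73. The slide held WT 4, so these counts cannot be told apart from that array.

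**Figure D5:**
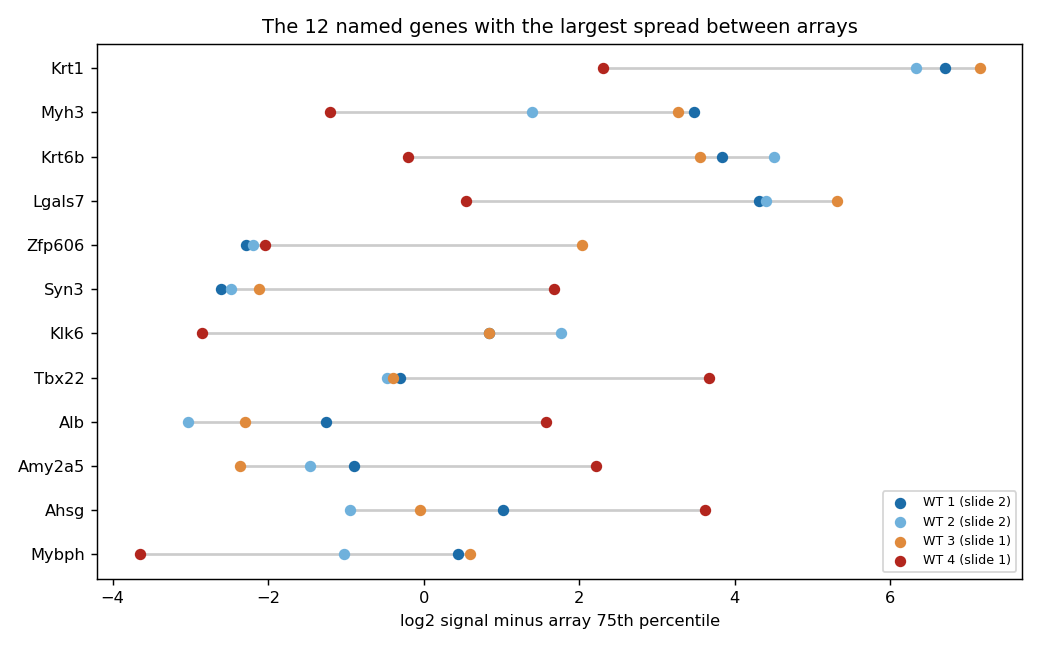
Levels of the 12 genes with a symbol and the largest SD over the 4 arrays (x axis, log2 signal minus the 75th percentile), 1 point per array. WT 4 lay at one end of the range for 11 of the 12 genes, and WT 3 for Zfp606.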

How the data were processed

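The spot intensity per array was made by the authors with an Agilent scanner. Per the file headers it came from Feature Extraction 10.5.1.1 (the submitters' processing notes name 9.1), with the array design annotated on mm9. The deposited processed intensity is background-subtracted, without normalization across arrays. Other deposited columns are flags per spot. Control and outlier-flagged spots were left out, spots of a probe were averaged, and log2 intensity was centred on the 75th percentile of the 59305 non-control spots (Python 3.11.15, numpy 2.4.6, pandas 2.3.3). Gene names are those of the array; 26762 probes matched RefSeq (GRCm38.p6, names and promoter windows only). Genes named were the 25 brightest and 12 most variable with a symbol, the 3 highest, the lowest, the most variable and the first 3 members of each list, and the C/EBP family. Outside this rule and chosen after their values were seen were Hba-a2, Muc5b, Rpl35, Sprr2a2 and Tpt1, and the list members Bhlha15, Bmp4, Chgb, Csrp1, Flg, Krt10, Krt16, Krtdap, Muc5ac, Sprr3, Trp63 and Tubb3 and, among dim genes, Cdx1, Cdx2, Cxcr2, Gfap, Hba-x, Hbb-bh1, Hbb-y, Hrh2, Lipf, Muc2, Ngp, Pdx1, Prox1, Rag1, Rag2, Sis and Sprr2a1. Members and lists were chosen with earlier results of these data known. Groups were not compared by any test, so there are no p-values; single arrays were set against Dixon's limit for 4 values. Alternatives were median centring, normexp with offset 50 and quantile normalization (limma 3.58.1, R 4.3.3), other filters, the median over probes, leaving out each array and each slide alone. The steps were tested on simulated data. The number of arrays limits the precision. The authors' value table and a genome were not used here.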

Additional observations from a re-analysis of the deposited data

Results flagged for a closer look

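For the 248 values of lists and named genes, 48 had a single array so far from the nearest other, relative to the whole range of the 4 arrays, that it passed Dixon's 95% critical value. Chance gives this in about 1 in 20 groups, and 9.90% of all measured genes showed it. The 48 cannot be read against these figures, since the named genes include the most variable gene of each list and the 12 genes of largest SD, which were picked for their spread. WT 4 was the lowest array in 37 of the 48 and the highest in 9, and 1 each was highest on WT 1 and WT 3. The values below are those of the array that stood apart, with the range of the other 3. No explanation was tested.

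Among list medians, WT 4 was lowest for the squamous group (3.07 against 4.65 to 4.80), squamous differentiation (3.15 against 5.06 to 5.11), fibroblasts and matrix (2.26 against 4.12 to 4.15), mucous neck cells (1.09 against 3.42 to 3.69), macrophages and general leukocytes (0.40 against 1.42 to 1.46), S phase and mitosis (1.89 against 3.09 to 3.20) and the C/EBP family (0.25 against 0.50 to 0.53). The mucous neck median on WT 4 was the value of Gpx3, its middle gene there. In the C/EBP family Cebpa (−0.82) and Cebpb (3.00) were lowest on WT 4, while Cebpd (2.76), Cebpz (0.95) and Cebpg (−0.46) were highest there. The family median on WT 4 lay between Cebpz and Cebpg, the middle genes on that array.

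Epithelial genes lowest on WT 4 were Krt4 (1.96 against 5.28 to 5.72), Krt13 (4.05 against 6.87 to 7.08), Ivl (−3.06 against 0.29 to 0.70), Krt5 (5.79 against 7.37 to 7.66), Krt15 (4.67 against 5.91 to 5.93), Perp (6.23 against 7.36 to 7.48) and Gpx3 (1.09 against 3.42 to 3.70). The hormone genes Ghrl (5.45 against 6.20 to 6.32), Sst (0.46 against 2.25 to 2.54) and Gcg (−1.07 against 0.58 to 0.84) were lowest there as well. Muscle, matrix and vessel wall genes lowest on WT 4 were Tagln (8.53 against 9.04 to 9.09), Des (1.98 against 4.14 to 4.27), Gja1 (−1.27 against 0.62 to 1.00), Sparc (7.55 against 8.84 to 8.99), Dpt (−2.19 against −0.08 to 0.15), Rgs5 (−0.73 against 0.92 to 1.14) and Thy1 (0.98 against 1.94 to 2.14), together with the mesothelial gene Upk3b (−2.18 against −0.46 to −0.12). Leukocyte and platelet genes lowest on WT 4 were S100a9 (3.17 against 4.42 to 4.48), Csf1r (3.66 against 4.08 to 4.12), C1qa (−1.47 against 0.87 to 1.21), Emr1 (−2.02 against −0.21 to −0.16) and Pf4 (1.64 against 3.42 to 3.74). Growth and metabolism genes lowest on WT 4 were Mki67 (3.18 against 4.37 to 4.50), Top2a (−0.84 against 1.54 to 1.65), Birc5 (3.21 against 4.41 to 4.54), Plagl1 (4.98 against 6.64 to 6.98), Dlk1 (3.30 against 5.61 to 5.98) and Fdps (4.17 against 5.30 to 5.40), and so was Cebpa (−0.82 against 0.82 to 0.94).

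Genes highest on WT 4 were Tbx22 (3.66 against −0.46 to −0.30), Syn3 (1.67 against −2.61 to −2.12), Ctrb1 (0.75 against −1.99 to −1.73), Car1 (−0.77 against −3.13 to −2.73), Ano1 (4.13 against 3.23 to 3.31), Cebpz (0.95 against 0.06 to 0.18), Sprr2a2 (9.53 against 8.77 to 8.80), Rpl37a (9.51 against 9.08 to 9.14) and Rps14 (9.58 against 8.98 to 9.08). Before scaling, the signal of Tbx22, Syn3, Ctrb1 and Car1 was highest on WT 4 too. That of Ano1, Cebpz, Sprr2a2 and Rps14 on WT 4 lay within the range of the other arrays. Rpl37a signal was lowest on WT 4 (161525 against 167291 to 232166). Highest on another array were Zfp606 (2.04 against −2.29 to −2.04) on WT 3 and Hba-a1 (5.76 against 5.42 to 5.45) on WT 1.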

How the results depend on the processing

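No paired analysis was possible because 1 group was described and no result comes from a test. In leaving out each array in turn, the group medians ran from 2.04 to 2.43 for glandular, 4.15 to 4.39 for squamous, 1.44 to 2.01 for muscle, 1.99 to 2.14 for stromal and 0.754 to 0.861 for blood genes, the median SD from 0.193 to 0.350, and 93 to 97 of the 100 brightest genes were shared. Median centring added a constant per array and gave 6.01 for glandular, 7.92 for squamous, 5.52 for muscle, 5.69 for stromal and 4.49 for blood genes, with the distance to the median of all genes unchanged. Normexp and quantile normalization gave 2.13 for glandular and 1.77 for stromal genes and a median SD of 0.245. Genes well above background on at least 1 array, which adds dim genes, gave 1.90 for glandular, 1.12 for muscle and 0.165 for blood genes, and no filter gave 1.50, 1.05 and −2.25 and a median SD of 0.526. The median over probes gave 2.14 for glandular, 1.33 for muscle and 1.81 for stromal genes. Slide 2 alone, which also measured more genes, gave 1.97 for glandular, 1.19 for muscle and 0.464 for blood genes and a median SD of 0.151. The cause of these shifts was otherwise not tested. Squamous genes stayed highest and blood genes lowest of the 5 groups in each of these settings, while glandular and stromal genes changed places without WT 4, with no filter, with genes above background on at least 1 array and on slide 2 alone. Of the 100 brightest genes, 68 were shared with the median over probes and 85 with normexp. Leaving out repeat-word probes, or also the shared-run and 2-base repeat probes, was chosen after seeing the data; it left 81 and 80 shared and moved the blood median to 0.768 in the second case.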

Other observations

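Among the next brightest genes once repeat-word probes were left out, Muc5b, a gel-forming mucin gene known from airways, stood at 9.05 ± 0.48, far above the surface mucin gene Muc5ac (0.72) on their single probes. Its levels were 8.73, 9.21, 8.60 and 9.64 on WT 1 to WT 4. Rpl35 of the large ribosomal subunit read 9.02 ± 0.23 and Tpt1, an abundant growth-associated gene, 8.92 ± 0.22.

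Of the 100 brightest genes of each array, 65 were shared by all 4 arrays, and 27 of the 100 brightest over all arrays have no gene symbol. The median of the genes read by a repeat-word probe was 3.22, 3.30, 3.37 and 4.28 on WT 1 to WT 4. For 1250 genes with probes at least 1000 bases apart in 1 transcript, the probe nearer the 3′ end exceeded the other by a median of 1.15, 1.05, 0.873 and 0.908 on these arrays, so WT 4 lay within the range of the others in this measure and outside it in the former.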
